A study of Bos taurus with 9 samples.

Results

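The 10 genes described here encode the apolipoproteins of plasma lipoproteins and the transfer protein that loads lipid onto apolipoprotein B: *APOB*, *MTTP*, *APOA1*, *APOA2*, *APOM*, *APOA5*, *APOC2*, *APOC3*, *APOE* and *APOA4*. They were chosen by symbol from the 28786 genes of a table of read counts from cow liver, all 10 were found, and all 10 passed the filter on low counts in every comparison. The libraries came from 9 lactating Holstein cows: 3 were kept in thermoneutrality (TN), 3 were under heat stress (HS), and 3 were in thermoneutrality but pair-fed, that is, given only as much feed as the HS cows ate (PF). The 9 cows were a random pick from a larger experiment, whose allocation balanced milk yield, lactation and stage of pregnancy; the mean days in milk of the 3 groups sequenced differed, with TN lowest and PF highest. Every cow gave 1 liver biopsy and 1 library, so n = 3 cows in each group. The HS cows differed from the TN cows in both climate and feed intake, the PF cows from the TN cows in intake, and the HS cows from the PF cows in climate at a matched intake.

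The liver exports triglyceride as very low density lipoprotein (VLDL). *MTTP* moves lipid onto *APOB* while the latter is being made, and smaller exchangeable apolipoproteins join the particle and later steer its fate: *APOC2* activates lipoprotein lipase, *APOC3* inhibits lipolysis and particle uptake, *APOA5* promotes lipolysis, and *APOE* is the ligand for uptake by hepatic receptors. *APOA1* and *APOA2* form high density lipoprotein (HDL), and *APOM* carries sphingosine-1-phosphate on it. The liver of ruminants is known for a low rate of VLDL export, and dairy cows mobilise body fat when their feed intake falls short of the demand of milk.

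Libraries held between 16874444 and 22557047 counts on genes. Levels are given as TMM-normalized CPM (counts scaled to a common library size), and differences as log2 fold changes with their standard error (SE). TN replicate 1 stood apart: the summed level of 9 hepatocyte markers (*ALB*, *TTR* and others) was 17599 CPM there, against 63818 to 141953 CPM in the other 8 libraries, and this library was the lowest of 9 for 26.9% of 15073 genes. *ALB* weighed most in this sum, with 8768 CPM in TN replicate 1 and 33904.5 to 82514.5 CPM in the other 8. Of the 9 markers only *TAT* was not lowest in TN replicate 1. It had 431 to 543 CPM in TN cows and 349 to 413 CPM in PF cows. The sum therefore need not measure hepatocyte content. In a bulk biopsy, fewer hepatocytes and less RNA of a gene per hepatocyte cannot be told apart. The 13 mitochondrial protein-coding genes took 13.6% to 22.2% of counts in TN cows, 6.90% to 7.79% in PF cows and 3.84% to 5.68% in HS cows, and leaving them out of the library sizes changed no call on the 10 genes. *APOB*, *MTTP*, *APOA1* and *APOA4* are also made by the gut: 5 to 7 of 9 enterocyte markers had 0 counts in each library, and their summed level of 119 to 275 CPM was almost wholly *LGALS4* (118 to 274 CPM). The 10 genes took 1.41% ± 0.444 (SD, n = 3) of the counts in TN cows, 1.98% ± 0.224 in PF cows and 2.06% ± 0.285 in HS cows. With mitochondrial genes left out of the total, these shares were 1.70% ± 0.472, 2.14% ± 0.253 and 2.17% ± 0.276. TN replicate 1 then had 1.16%, and TN replicates 2 and 3 had 2.00% and 1.94%. The PF cows had 1.97% to 2.43% and the HS cows 2.00% to 2.48%.

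Of the 10 genes, *APOC2*, *APOA5* and *APOA4* had the smallest p against the TN group in both comparisons, each with a higher mean level in the HS and in the PF cows. A gene was called when its FDR (p adjusted by Benjamini-Hochberg over all genes tested) was under 0.1 and its fold change over 1.5. With the quasi-likelihood test of edgeR, 0 of the 10 genes were called between HS and TN cows, where 0.0892% of 14582 genes were called. The unadjusted p was under 0.05 for 3 of the 10, against 9.36% of all genes, and the groups did not overlap for 4 of the 10, against 16.1%. With DESeq2, the tool of the study, 2 of the 10 were called (*APOC2* and *APOA4*), against 1.75% of 15414 genes. The log2 fold change was positive in 8 of the 10 and its median was 0.63, against -0.01 over all genes tested.

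Between PF and TN cows, edgeR called 0 of the 10 genes and 0% of 14580 genes. There, 3 of the 10 had an unadjusted p under 0.05, against 6.88% of all genes, and the groups did not overlap for 2 of the 10, against 13.2%. DESeq2 called 1 of the 10 (*APOA5*), against 0.555% of 16411 genes. All 10 log2 fold changes were positive, with a median of 0.57 against -0.01 over all genes tested. The comparisons of HS and of PF cows with TN cows share the 3 TN cows, so they are not independent of each other. In a test of all 3 groups at once, edgeR called 0 of the 10 genes and 0.0464% of 15073 genes at an FDR under 0.1, with *APOC2* at an FDR of 0.506 and *APOA5* at 0.556. The likelihood ratio test of DESeq2 called 2 of the 10, against 1.89% of 15387 genes: *APOC2* (FDR = 0.0603) and *APOA5* (FDR = 0.0605).

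**Figure D1:**
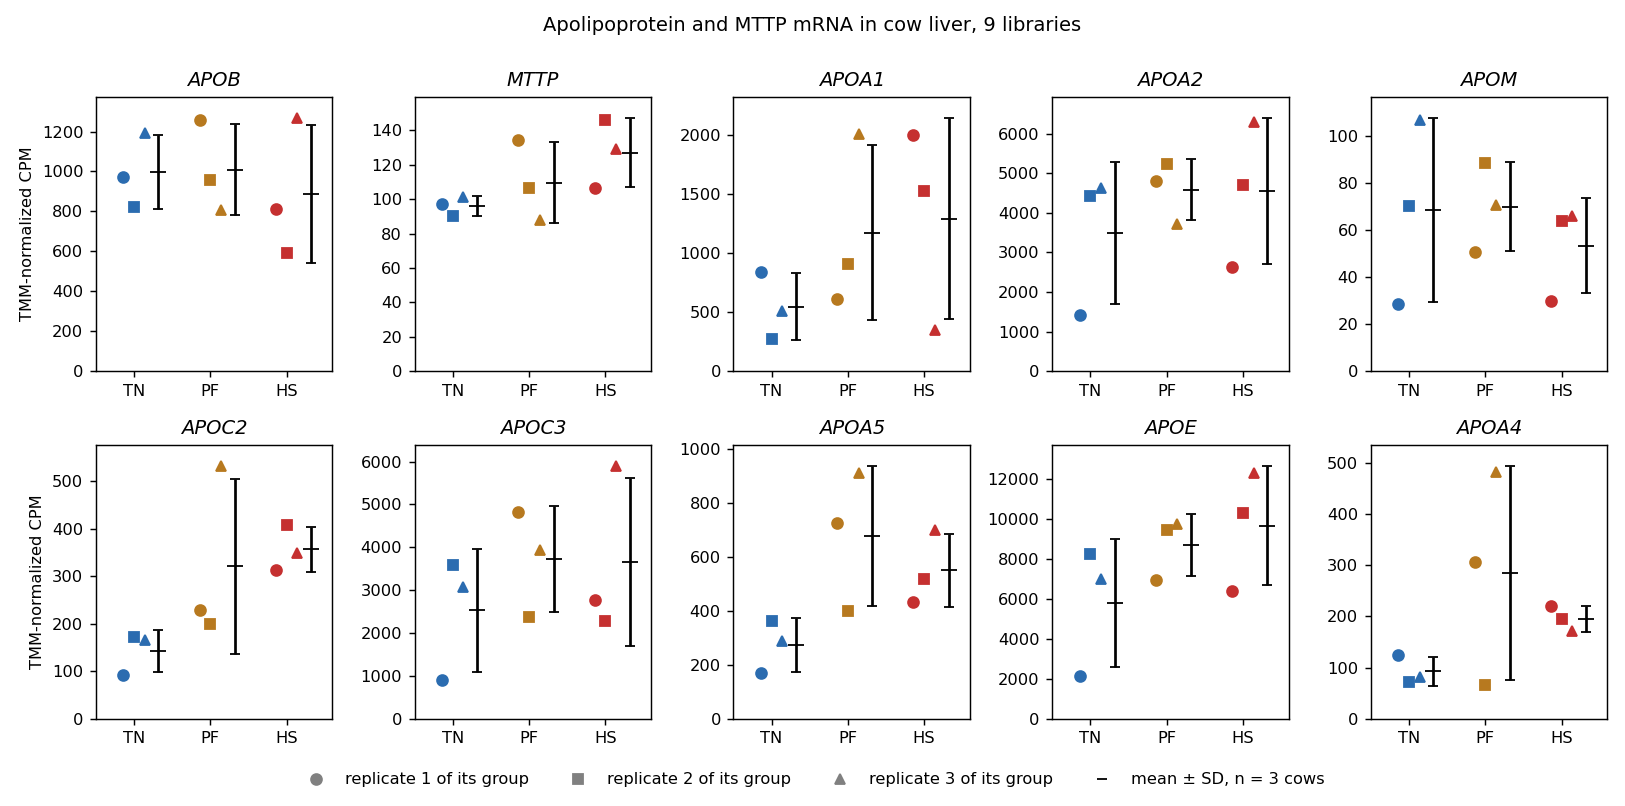
Level of each of the 10 genes in every library (TMM-normalized CPM, linear axes from 0), with TN, PF and HS cows side by side. Symbols mark the replicate of each group, and the bar to their right is the mean ± SD of 3 cows. HS cows lie above all TN cows for *MTTP*, *APOC2*, *APOA5* and *APOA4*, and TN replicate 1 (circle) is the lowest of 9 for *APOA2*, *APOM*, *APOC2*, *APOC3*, *APOA5* and *APOE*.

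Among the regulators of lipolysis, *APOC2* had 91.7, 171 and 165 CPM in TN replicates 1 to 3. It had 313, 407 and 349 CPM in the HS cows. The PF cows had 230, 200.1 and 533 CPM. Every HS and every PF cow thus lay above every TN cow, with PF replicate 3 far above the other PF cows. Between HS and TN, *APOC2* had a log2 fold change of 1.31 (SE 0.33, 95% confidence interval 0.58 to 2.04, edgeR FDR = 0.315), and DESeq2 gave 1.34 with an FDR of 0.00215. Between PF and TN it was 1.17 (SE 0.43, edgeR FDR = 0.705; DESeq2 FDR = 0.215), and without PF replicate 3 it was 0.60.

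*APOA5* had 167, 363 and 289 CPM in TN cows, 726, 397 and 910.3 CPM in PF cows, and 433, 517 and 700 CPM in HS cows. Both reduced-intake groups lay above the TN group without overlap. Its log2 fold change was 1.31 between PF and TN (SE 0.42, edgeR FDR = 0.697; DESeq2 FDR = 0.0533) and 1.00 between HS and TN (SE 0.38, edgeR FDR = 0.485; DESeq2 FDR = 0.104). The DESeq2 call of *APOA5* between PF and TN held in 2 of 6 fits that each left out 1 cow (without TN replicate 2 and without PF replicate 2). *APOC3* did not share this separation: its levels were 895, 3595 and 3084 CPM in TN cows, 4825, 2380 and 3943 CPM in PF cows, and 2769, 2284 and 5904 CPM in HS cows. The groups overlapped, and the log2 fold change of *APOC3* was 0.53 (SE 0.62) between HS and TN and 0.56 (SE 0.52) between PF and TN. The lowest *APOC3* value was that of TN replicate 1, and without this cow the values were 0.13 and 0.15.

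*APOA4* is made when chylomicrons or VLDL are assembled and circulates largely free of lipid. It had 125, 71.8 and 82.0 CPM in TN cows and 221, 196 and 171 CPM in HS cows, and 308, 65.7 and 483 CPM in PF cows. The HS cows lay close together above all TN cows, whereas PF replicate 2 lay below all TN cows and the other two PF cows above all HS cows. The log2 fold change of *APOA4* was 1.05 between HS and TN (SE 0.30, edgeR FDR = 0.392; DESeq2 FDR = 0.0221). Between PF and TN it was 1.62 (SE 0.57, edgeR FDR = 0.697; DESeq2 FDR = 0.607) with all 3 PF cows, and 2.09 without PF replicate 2. *APOA4* was not low in TN replicate 1, which had the highest level of the TN cows. Leaving out that cow gave a log2 fold change of 1.35 between HS and TN, an edgeR FDR of 0.227 and a DESeq2 call. The call of *APOA4* by DESeq2 was lost without TN replicate 3, HS replicate 1 or HS replicate 2.

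*APOE* had 2146, 8206 and 6953 CPM in TN cows, 6923, 9426 and 9735 CPM in PF cows, and 6394, 10275 and 12277 CPM in HS cows. The groups overlapped, and TN replicate 1 lay far below the other 8 cows. The log2 fold change was 0.73 (SE 0.62) between HS and TN and 0.59 (SE 0.50) between PF and TN, and without TN replicate 1 these values were 0.35 and 0.20.

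Neither the structural protein of VLDL nor its lipid loader reached a 1.5-fold difference in any comparison. *APOB*, 1 copy of which stays with each particle, had 974, 823 and 1195 CPM in TN cows, 1259, 959 and 809 CPM in PF cows, and 811, 589 and 1267 CPM in HS cows. Its groups overlapped in all comparisons, and its log2 fold change was -0.18 (SE 0.41) between HS and TN and 0.01 (SE 0.35) between PF and TN. *MTTP* had 97.1, 90.0 and 101 CPM in TN cows, 134, 107 and 88.0 CPM in PF cows, and 106, 146 and 129 CPM in HS cows. The HS cows lay above the TN cows without overlap, but by little: the log2 fold change was 0.39 (SE 0.24, 95% confidence interval -0.15 to 0.93, edgeR FDR = 0.608; DESeq2 FDR = 0.619). For *APOB* the interval between HS and TN was -1.09 to 0.73, which does not exclude a change of 1.5-fold in either direction.

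Of the HDL proteins, *APOA1* varied most between cows of the same group. It had 842, 276 and 513 CPM in TN cows, 610.3, 903 and 2007 CPM in PF cows, and 2001, 1523 and 350.4 CPM in HS cows. The log2 fold change of *APOA1* between HS and TN was 1.22 (SE 0.65, edgeR FDR = 0.564; DESeq2 FDR = 0.284), and between PF and TN it was 1.11 (SE 0.52, edgeR FDR = 0.709; DESeq2 FDR = 0.414). HS replicate 3 lay below 2 of the 3 TN cows, and without it the value between HS and TN was 1.68 (edgeR FDR = 0.688) and DESeq2 called the gene.

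*APOA2* had 1427, 4415 and 4618 CPM in TN cows, 4793, 5244 and 3727 CPM in PF cows, and 2637, 4714 and 6302 CPM in HS cows. Its log2 fold change was 0.38 (SE 0.58) between HS and TN and 0.40 (SE 0.47) between PF and TN, and without TN replicate 1 it was 0.01 and 0.03. *APOM* had 28.6, 70.4 and 107 CPM in TN cows, 50.8, 88.6 and 70.7 CPM in PF cows, and 30.1, 64.1 and 66.2 CPM in HS cows. It was 1 of the 2 genes, with *APOB*, whose log2 fold change between HS and TN was negative (-0.37, SE 0.45), and its groups overlapped.

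Between HS and PF cows, which ate alike and differed in climate, 0 of the 10 genes were called by edgeR, against 0.0276% of 14510 genes, and 0 by DESeq2, against 0.771% of 15815 genes. No gene of the 10 had an unadjusted p under 0.05, against 5.32% of all genes, and 0 of the 10 separated the groups without overlap, against 10.5%. The log2 fold changes ran from -0.55 for *APOA4* (95% confidence interval -1.72 to 0.62) to 0.21 for *MTTP* (-0.36 to 0.77), with 4 positive and 6 negative. *APOC2* was at 0.15 (-0.67 to 0.97) and *APOA5* at -0.31 (-1.08 to 0.47). Each of these 4 intervals includes changes of 1.5-fold, so 3 cows a group could not show whether HS and PF cows had the same level. DESeq2 without PF replicate 2 called *APOA4*, with HS cows below the 2 PF cows that remained.

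**Figure D2:**
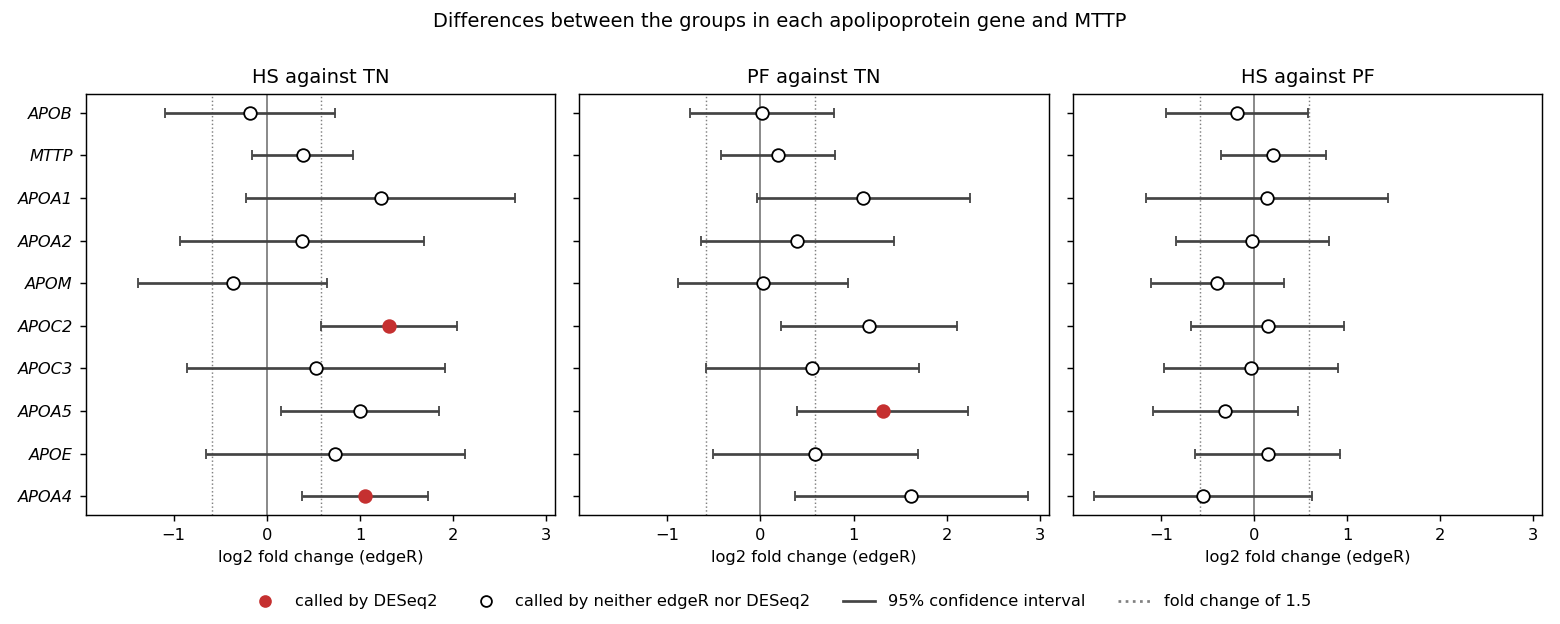
Log2 fold change of each gene from edgeR (horizontal axis) in each of the 3 comparisons, with bars for the 95% confidence interval and dotted lines at a fold change of 1.5. Filled points are genes called by DESeq2: *APOC2* and *APOA4* between HS and TN, and *APOA5* between PF and TN. Between HS and PF all intervals include 0, and edgeR called no gene in any panel.

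The summed hepatocyte markers were lowest in TN replicate 1, as *APOC2* and *APOA5* were, whereas *APOA4* was not. Among the PF cows the markers were lowest in replicate 3, which had the highest PF level of *APOC2*, *APOA5* and *APOA4*. Among the HS cows they were highest in replicate 3, which had the highest HS level of *APOA5* and the lowest of *APOA4*. The summed markers were 17599, 85413 and 71581 CPM in TN cows, 127957, 97929 and 92024 CPM in PF cows, and 63818, 85678 and 141953 CPM in HS cows, and all 9 markers had a positive log2 fold change between HS and TN (median 0.78), none of them called by edgeR or DESeq2. Relative to these markers, *APOC2* had 5.21, 2.01 and 2.31 counts per 1000 marker counts in TN cows and 4.91, 4.76 and 2.46 in HS cows. TN replicate 1 then had the highest value of the TN and HS cows, and the groups overlapped. TN replicates 2 and 3 lay below every HS cow on this scale for *APOC2*, *APOA5* and *APOA4*. The gap was small for *APOA4* (0.841 and 1.15 against 1.20 to 3.47) and for *APOC2* (2.01 and 2.31 against 2.46 to 4.91). The mean difference of *APOC2* between HS and TN on this scale was 0.42 in log2 (exact permutation test, two-sided p = 0.5), that of *APOA5* was 0.10 (p = 0.8, same exact test) and that of *APOA4* was 0.16 (p = 0.9, same exact test).

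On the marker scale, 4 of the 10 differences between HS and TN and 2 of the 10 between PF and TN were positive, against 8 and 10 without it. Between HS and TN they included -1.17 for *APOB*, -0.56 for *MTTP* and -0.47 for *APOA2*. Those of *APOB* and *MTTP* rest largely on TN replicate 1. *APOB* had 55.3 counts per 1000 marker counts there, against 9.64 and 16.7 in the other TN cows and 12.7, 6.88 and 8.92 in HS cows. *MTTP* had 5.52 there, against 1.05 and 1.41 in the other TN cows and 1.66, 1.70 and 0.909 in HS cows. With 3 cows against 3 the exact permutation test cannot give a p below 0.1. Of 30 such differences (10 genes in 3 comparisons), 1 separated the groups without overlap. This was *APOM* between HS and TN, with 1.62, 0.824 and 1.49 counts per 1000 marker counts in TN cows and 0.471, 0.749 and 0.466 in HS cows, a log2 difference of -1.20 (exact permutation p = 0.1). The part of hepatocyte content in the differences of *APOC2*, *APOA5* and *APOA4* was not tested. Without TN replicate 1, and with no scaling to markers, the log2 fold change between HS and TN was 1.08 for *APOC2* (SE 0.27, edgeR FDR = 0.448), 1.35 for *APOA4* and 0.75 for *APOA5* (SE 0.32, edgeR FDR = 0.759), and the median of the 10 genes was 0.38 in place of 0.63.

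**Figure D3:**
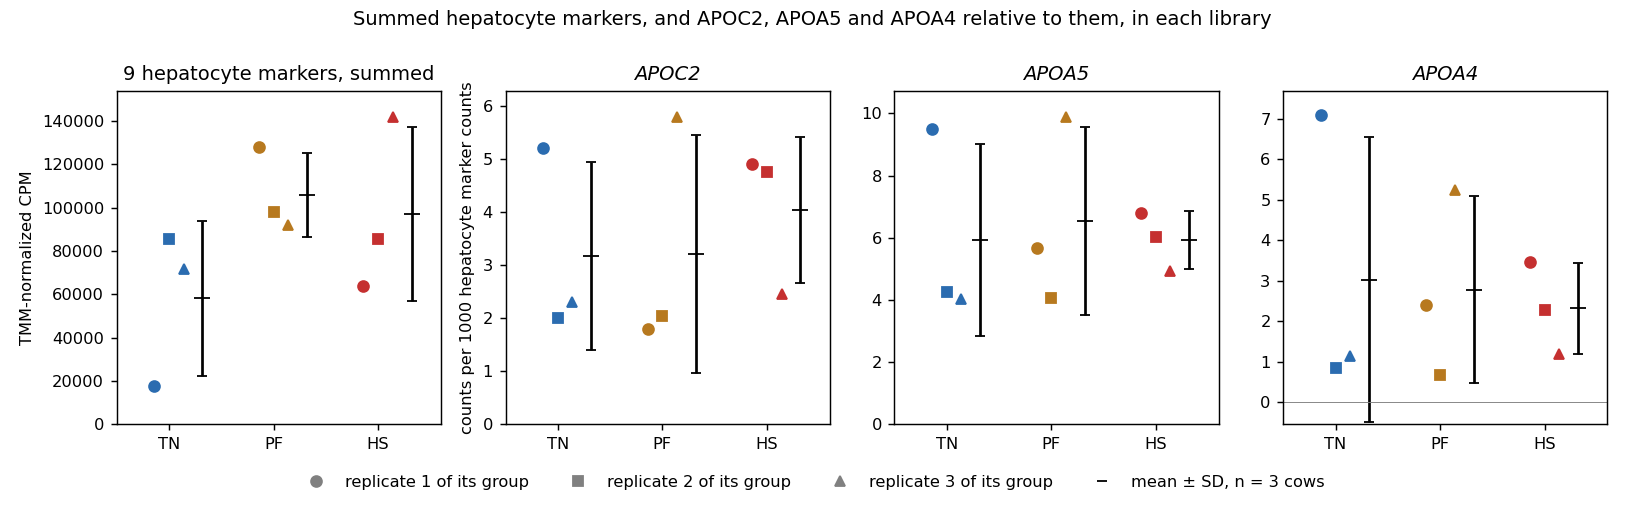
Left panel: summed level of 9 hepatocyte markers in each library (TMM-normalized CPM). Other panels: *APOC2*, *APOA5* and *APOA4* as counts per 1000 counts on those markers, with the mean ± SD of 3 cows as a bar. TN replicate 1 (circle) has the lowest marker level at 17599 CPM and the highest TN value in each of the other panels, where the groups overlap.

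The 10 genes differed in how much they varied between cows of the same group. The within-group SD of log2 CPM was 0.23 for *MTTP* and 0.40 for *APOB*, but 1.04 for *APOA1*, 0.91 for *APOA4* and 0.82 for *APOC3*. The median of the 10 genes was 0.69, against 0.39 over the 2041 genes that were expressed as highly. Among those 2041 genes, *APOA1* stood at the 97.7 percentile of this SD, *APOA4* at 96.7 and *MTTP* at 12.1. Over the 9 libraries the highest level was 7.36 times the lowest for *APOA4*, 7.27 times for *APOA1* and 1.66 times for *MTTP*.

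Over the 9 libraries, which share the groups and the low TN replicate 1, *APOA2* and *APOE* were the most alike of the 10 genes (Pearson's r of log2 CPM = 0.91, and 0.91 after the group means were removed). *APOA5* had r = 0.88 with *APOC2* and r = 0.81 with *APOC3*. *APOA1* ran the other way from its HDL partner *APOA2* (r = -0.37, within groups -0.73) and from *APOB* (r = -0.59, within groups -0.63). The genes of the cluster on chromosome 15 (*APOA5*, *APOA4*, *APOC3* and *APOA1*, neighbours in RefSeq's gene models for ARS-UCD2.0) did not vary as 1 block: *APOA1* and *APOC3* had r = -0.31, and *APOA5* and *APOA4* had r = 0.69. On chromosome 18, where *APOE*, *APOC4* and *APOC2* are neighbours, *APOC4* had 262, 758 and 832 CPM in TN cows and 297, 618 and 709 CPM in HS cows. The log2 ratio of *APOC2* to *APOC4* was 1.48 higher in HS than in TN cows, without overlap (exact permutation p = 0.1). It was the only 1 of 24 comparisons of 8 ratios between apolipoprotein genes without overlap, and the ratios were chosen after the values were seen.

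The count of *APOA1* may depend on how reads were divided between overlapping genes, which was not tested. In ARS-UCD2.0, a later build than that of the counts, *LOC107133155*, a protein-coding gene chosen here after its values were seen, lies within the span of *APOA1*. It had 79.2, 264 and 283 CPM in TN cows, 428, 393 and 379 CPM in PF cows, and 365, 460 and 698 CPM in HS cows. TN replicate 1 had the lowest level of *LOC107133155* and the highest level of *APOA1* of the TN cows, and HS replicate 3 had the highest and the lowest of the HS cows. Between HS and TN, the log2 fold change of *LOC107133155* was 1.28 (SE 0.49, edgeR FDR = 0.487; DESeq2 FDR = 0.0991). With the counts of both genes added, an alternative chosen after seeing the data, the log2 fold change of *APOA1* was 1.24 between HS and TN (SE 0.45, edgeR FDR = 0.468) and 1.06 between PF and TN (SE 0.42, edgeR FDR = 0.708). *APOA4* overlaps *APOC3* and *APOA1* in the same annotation, and *APOM* overlaps *BAG6*. The effect of these overlaps on the counts was not tested either. The strand setting of the counting is not given in the sources used here.

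**Figure D4:**
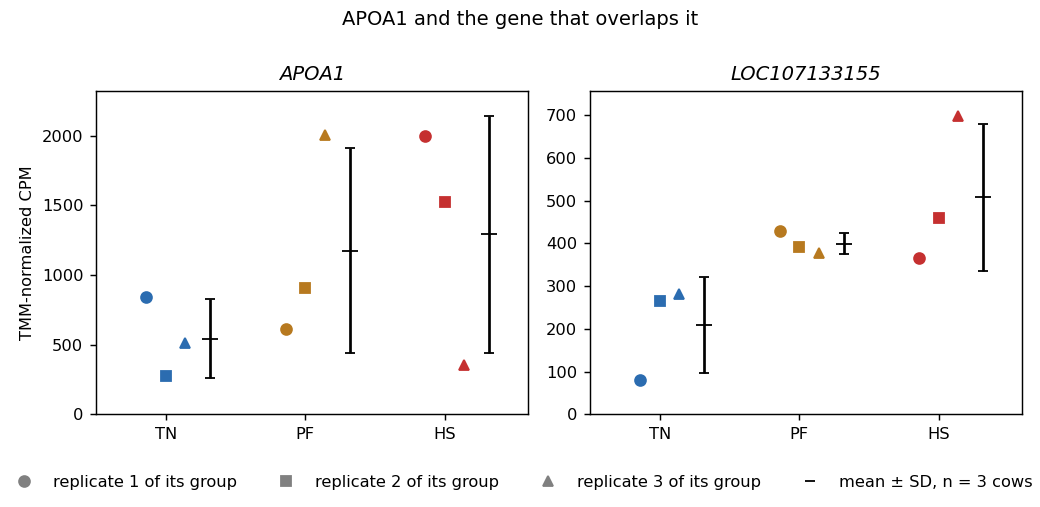
Level of *APOA1* and of *LOC107133155*, which lies within its span in ARS-UCD2.0, in every library (TMM-normalized CPM), with the mean ± SD of 3 cows as a bar. HS replicate 3 (triangle) has the lowest *APOA1* level of the HS cows, 350.4 CPM, and the highest *LOC107133155* level, 698 CPM, and TN replicate 1 (circle) has the reverse order among the TN cows.

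Around these genes, 22 genes of VLDL assembly and secretion were tested between HS and TN cows. None was called by edgeR (lowest FDR 0.280), and their median log2 fold change was 0.16. An unadjusted p under 0.05 was found for 4 of the 22, against 9.36% of all genes. DESeq2 called 3, against 1.75% of all genes, with 1 higher and 2 lower in HS cows. *DGAT2*, which makes triglyceride, had 9.80, 30.0 and 23.4 CPM in TN cows, 51.8, 30.3 and 55.0 CPM in PF cows, and 39.1, 61.9 and 45.4 CPM in HS cows. Its log2 fold change between HS and TN was 1.20 (SE 0.37, edgeR FDR = 0.416; DESeq2 FDR = 0.0929). *PNPLA3*, a triglyceride hydrolase of lipid droplets, had 0.741 to 5.68 CPM in TN cows and 0 to 0.673 CPM in HS cows (log2 fold change -2.90, SE 1.02, edgeR FDR = 0.462; DESeq2 FDR = 0.0783). *PRAP1*, a secreted protein that binds *MTTP* and aids lipoprotein assembly in the gut, had 440.0, 20.7 and 108 CPM in TN cows, against 8.61 to 15.9 CPM in HS cows (log2 fold change -3.89, SE 0.91, edgeR FDR = 0.280; DESeq2 FDR = 0.0377). In PF cows *PRAP1* had 3.37 to 12.1 CPM and a log2 fold change against TN of -4.53 (edgeR FDR = 0.405; DESeq2 FDR = 0.0324), the 1 call of DESeq2 in this list between PF and TN.

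Of 9 genes tested between HS and TN from a list of other genes named for apolipoproteins, edgeR called 0. DESeq2 called only *CLU* (apolipoprotein J, an extracellular chaperone), against 1.75% of all genes. The unadjusted p was under 0.05 for 1 of the 9, against 9.36% of all genes. *CLU* had 303, 996 and 789 CPM in TN cows, 1429, 1287 and 1640 CPM in PF cows, and 1454, 1479 and 1873 CPM in HS cows. The TN group lay below both other groups without overlap. Its log2 fold change was 1.19 between HS and TN (SE 0.48, edgeR FDR = 0.495; DESeq2 FDR = 0.0743) and 1.06 between PF and TN (SE 0.44, edgeR FDR = 0.708; DESeq2 FDR = 0.273). *APOL3*, next in the list by its p, had a log2 fold change of -0.39 between HS and TN (SE 0.23, edgeR FDR = 0.587).

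Among 20 genes of lipoprotein remodelling, lipolysis and uptake, DESeq2 called 1 higher and 1 lower between HS and TN, against 1.75% of all genes called. EdgeR called 0, and 4 of the 20 had an unadjusted p under 0.05, against 9.36% of all genes. *ANGPTL8*, an inhibitor of lipoprotein lipase that is induced by feeding, had 356, 295 and 340.2 CPM in TN cows, 164, 128 and 75.7 CPM in PF cows, and 77.8, 158 and 183 CPM in HS cows. Both reduced-intake groups lay below all TN cows. Its log2 fold change was -1.26 between HS and TN (SE 0.36, edgeR FDR = 0.392; DESeq2 FDR = 0.0248) and -1.43 between PF and TN (SE 0.35, edgeR FDR = 0.579; DESeq2 FDR = 0.00383). Unlike the summed hepatocyte markers, *ANGPTL8* was highest in TN replicate 1. *ABCA1*, which passes cholesterol to *APOA1* to form HDL, had 64.8, 71.8 and 68.0 CPM in TN cows and 129, 183 and 88.6 CPM in HS cows (log2 fold change 0.95, SE 0.29, edgeR FDR = 0.417; DESeq2 FDR = 0.0823).

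Among 24 transcriptional regulators of these genes, edgeR called *FOXA3* between HS and TN, against 0.0892% of all genes. DESeq2 called 3, all higher in HS cows, against 1.75% of all genes. *FOXA3*, a forkhead factor of hepatocytes, had 8.95, 9.14 and 18.5 CPM in TN cows, 3.73, 21.3 and 17.2 CPM in PF cows, and 48.0, 46.8 and 56.3 CPM in HS cows. It rose in HS cows by 2.03 on the log2 scale over TN cows (SE 0.30, edgeR FDR = 0.0919; DESeq2 FDR = 1.42e-06), and differed by 1.83 from PF cows (SE 0.47, edgeR FDR = 0.420; DESeq2 FDR = 0.0120). *CREB3L3*, a factor known to drive *APOC2*, *APOA4* and *APOA5* in mouse liver, had 41.8, 51.3 and 52.2 CPM in TN cows, 47.9, 50.5 and 144 CPM in PF cows, and 76.5, 117 and 91.7 CPM in HS cows. Its log2 fold change between HS and TN was 0.96 (SE 0.24, edgeR FDR = 0.322; DESeq2 FDR = 0.0345), and between HS and PF it was 0.23 (SE 0.40). *NR1D1*, a repressor of the circadian clock, had 5.78 to 13.3 CPM in TN cows, 2.18 to 6.63 CPM in PF cows and 14.2 to 39.9 CPM in HS cows. Its log2 fold change was 1.42 between HS and TN (SE 0.41, edgeR FDR = 0.392; DESeq2 FDR = 0.0484) and 2.57 between HS and PF (SE 0.45, edgeR FDR = 0.127; DESeq2 FDR = 4.39e-06).

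Several of these calls were lost in fits with 1 cow fewer. When each of the 6 cows was left out in turn, *FOXA3* between HS and TN was called by DESeq2 in 6 of 6 fits and by edgeR in 1 (without TN replicate 3, FDR = 0.0644), with edgeR FDRs up to 0.246 in the others. *NR1D1* and *FOXA3* between HS and PF and *ANGPTL8* between PF and TN were called by DESeq2 in 6 of 6 fits, and *ANGPTL8* between HS and TN in 5. The DESeq2 call of *PRAP1* between PF and TN held in 1 of 6 fits (without TN replicate 2). Without that cow, edgeR also called *PRAP1* between HS and TN (FDR = 0.0362) and between PF and TN (FDR = 0.0613). Without HS replicate 1, edgeR called *NR1D1* between HS and PF (FDR = 0.0800). The DESeq2 calls between HS and TN held in 3 of 6 fits for *CREB3L3*, in 2 for *CLU*, *PRAP1* and *NR1D1*, and in 1 for *DGAT2*, *ABCA1* and *PNPLA3*. Across these fits of 5 cows the log2 fold change between HS and TN stayed at 0.87 to 1.55 for *DGAT2*, 0.66 to 1.18 for *ABCA1* and -3.35 to -2.11 for *PNPLA3*, and whether a call was lost through a given cow or through the smaller number was not tested.

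Between PF and TN, edgeR called no gene of these 4 lists. DESeq2 called *PRAP1* and *ANGPTL8*, both lower in PF cows, against 0.555% of all genes. An unadjusted p under 0.05 was found for 4 of 22 assembly genes, 2 of 10 other apolipoprotein genes, 6 of 20 remodelling genes and 2 of 24 regulators. The share over all genes was 6.88%. Between HS and PF, edgeR called none, and DESeq2 called *FOXA3* and *NR1D1*, both higher in HS cows, against 0.771% of all genes. An unadjusted p under 0.05 was found for 2, 0, 3 and 3 genes in the same order, against 5.32% of all genes.

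**Figure D5:**
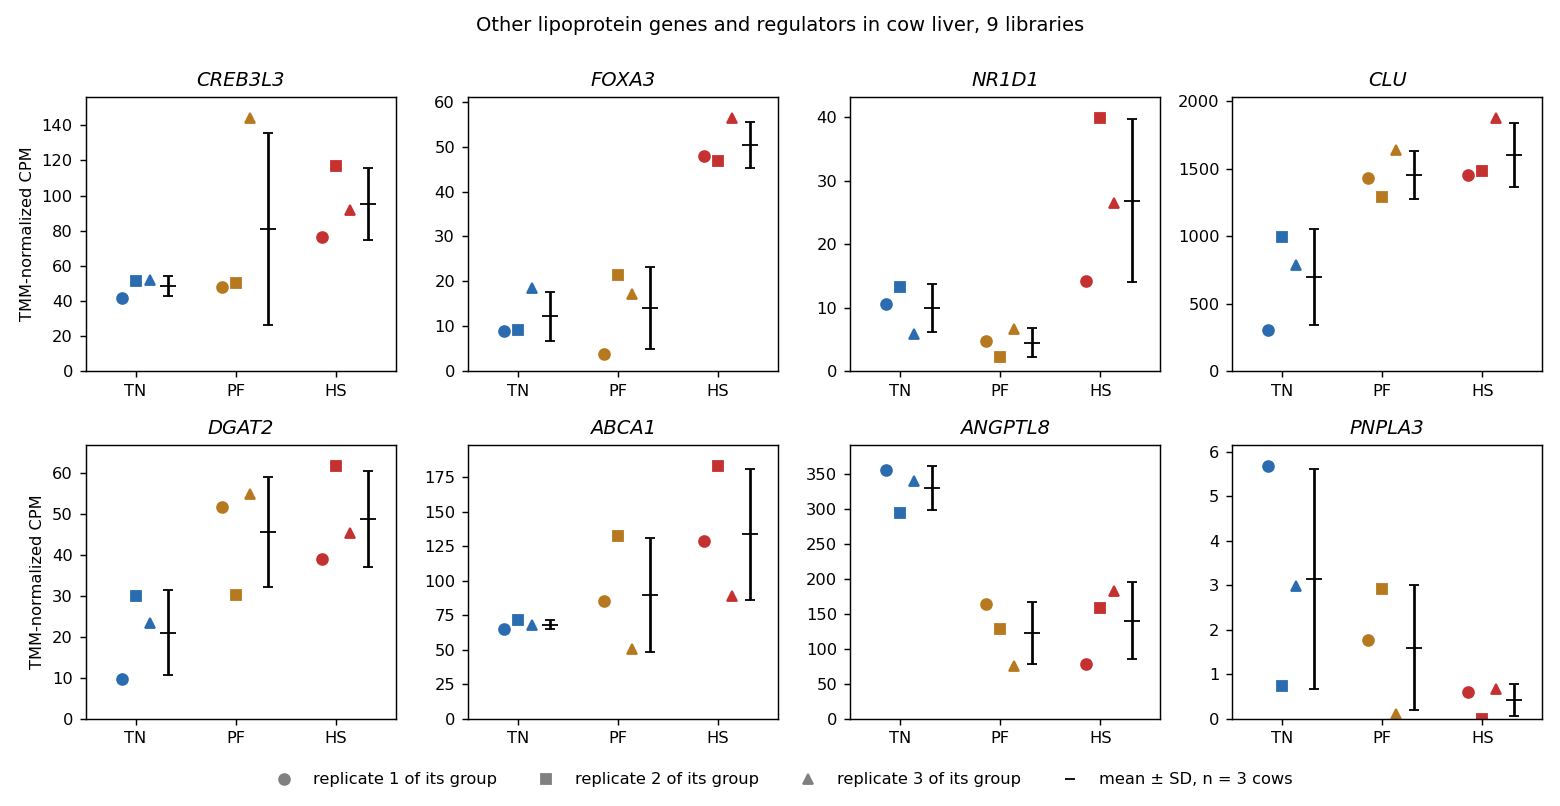
Level of 8 genes around the apolipoproteins in every library (TMM-normalized CPM, linear axes from 0), with the mean ± SD of 3 cows as a bar. *FOXA3* and *NR1D1* are higher in all HS cows than in all TN and PF cows. For *NR1D1* the margin over TN is small (lowest HS cow 14.2 CPM, highest TN cow 13.3 CPM). *CLU* and *ANGPTL8* instead separate the TN cows from both other groups. *DGAT2* does so too, but its highest TN cow (30.0 CPM) and lowest PF cow (30.3 CPM) nearly touch.

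By likeness over the 9 libraries, the genes closest to *APOC2*, the gene of the 10 with the smallest p between HS and TN, were *LOC101906383* (r = 0.94), *B3GALT1* (r = 0.94), *KCNMA1* (r = 0.94), *CREB3L3* (r = 0.92) and *WDCP* (r = 0.92), out of 15072 genes. In PF replicate 3 both *APOC2* (533 CPM) and *CREB3L3* (144 CPM) had their highest level of the 9 libraries. The genes closest to *APOA1*, chosen after its values were seen, were *KIDINS220* (r = 0.90) and *CANT1* (r = 0.88).

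The macrophage markers, whose cells also make *APOE*, had summed levels of 1583 to 3590 CPM in TN cows, 1370.3 to 2169 CPM in PF cows and 2298 to 3924 CPM in HS cows. Between HS and PF, 9 of 10 had an unadjusted p under 0.05, against 5.32% of all genes, with none called. The part of macrophages in the *APOE* level was not tested.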

How the data were processed

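Liver RNA of 9 cows (3 TN, 3 PF, 3 HS) was sequenced after poly-A selection. The authors cleaned reads with fastp 0.23.2, aligned them to ARS-UCD1.2 with STAR 2.7.9a (at most 3 mismatches) and deposited raw featureCounts 2.0.3 counts per gene; the annotation release, strand and multi-mapping settings are not given in the sources used here. Depth was 16874444 to 22557047 counts, and a count of 0 allows 3 counts, or 0.111 to 0.202 CPM (counting error only). The 6 libraries of each pair were fitted with edgeR 4.0.16 (R 4.3.3; TMM, filterByExpr, quasi-likelihood F test) and with DESeq2 1.42.0 as the alternative. On data simulated with the same spread for every gene, DESeq2 made false calls at a higher rate than its FDR threshold. Both tools missed most genes changed by 2-fold there. The spread of the 10 genes differed from gene to gene, so these rates need not hold for them. CPM come from all 9 libraries, with an offset of 0.5 on the log2 scale. The 10 genes, the gene lists and the marker lists were chosen with earlier results of these data known. Named from the lists were genes called by either tool and the 2 with the smallest p between HS and TN. Other named genes were chosen after their values were seen. RefSeq's ARS-UCD2.0 annotation gave only names, neighbours and overlaps, since its build differs. Replicates are separate cows. The paper describes the intake of PF cows as matched to an HS counterpart, but the labels name no pairs, so the main fits treat cows as unpaired.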

Additional observations from a re-analysis of the deposited data

How the results depend on the processing

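Fits without each cow were run with edgeR and DESeq2, and the other alternatives with edgeR only. Between HS and TN, DESeq2 called 2 of the 10 genes where edgeR called 0, and leaving out each cow in turn gave 0 to 3 calls over both tools (edgeR 0 each time, DESeq2 1 to 3, with *APOC2* called in all 6 fits). DESeq2 called 270 genes in all with every cow and 171 to 534 without 1 cow. The count among the 10 was 3 without TN replicate 2 (534 genes in all) and without HS replicate 3 (204 in all), 2 without TN replicate 1, and 1 without TN replicate 3, HS replicate 1 or HS replicate 2. Between PF and TN, DESeq2 called 1 gene (*APOA5*), edgeR with no filter on low counts called 1 (*APOA4*), and leaving out a cow gave 0 to 2 (2 without TN replicate 2 or PF replicate 2). Between HS and PF the range was 0 to 1 (1 without PF replicate 2). In the test of 3 groups the DESeq2 likelihood ratio test called 2. The DESeq2 fits without each cow, and all such fits for other lipoprotein genes, were chosen after seeing the data. The causes were not tested.

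Of 423 alternative values of the 30 log2 fold changes, 24 had the other sign, in 12 of the 30. Leaving out each cow gave, between HS and TN, -0.73 to 0.10 for *APOM*, -0.52 to 0.051 for *APOB* and -0.0074 to 0.87 for *APOC3*. Between HS and PF it gave -0.53 to 0.040 for *APOB*, -0.34 to 0.76 for *APOA1*, -0.32 to 0.25 for *APOA2*, -0.10 to 0.72 for *APOC2*, -0.56 to 0.22 for *APOC3*, -1.01 to 0.075 for *APOA4* and -0.062 to 0.36 for *APOE*. Between PF and TN it gave -0.17 to 0.17 for *APOB* and -0.33 to 0.50 for *APOM*. With at least 10 counts in every sample, *APOB* between PF and TN was -0.0033.

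With the replicate block, edgeR called 0 of the 10 genes in each comparison, and the median log2 fold change was 0.76 between HS and TN, -0.09 between HS and PF and 0.74 between PF and TN. Same-numbered cows correlated at -0.18 to 0.24 between HS and TN and at -0.22 to 0.04 between HS and PF. These correlations gave no sign of pairing by number, but they cannot exclude it. RLE size factors, all 9 libraries in 1 fit, an FDR under 0.05, glmTreat, and library sizes without mitochondrial genes or without the 10 genes changed no call of edgeR. With 3 cows a group, edgeR FDRs over 0.1 do not show that levels were equal, and promoter and protein sequences were not analysed here.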
